A study of Komagataella pastoris with 15 samples.

Results

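The transcripts described here were lower in methanol-adapted cells than in the other sampled phases of a fermentation in which Pichia pastoris, a yeast that grows on methanol, made recombinant human serum albumin (rhHSA). The labels call the species Komagataella pastoris. The transcripts were chosen from the authors' deposited table of log2 values, averaged over the 3 arrays of each phase. A probe belonged to the set if its methanol-adapted mean lay at least 0.8 log2 units below the lowest of the 4 other phase means, a distance called the margin here, and if its mean at the end of fermentation was less than 1 log2 unit above the highest of the other means. Both conditions were met by 91 of the 3915 probes listed there, and the array holds 5039 probes, named by locus tag.

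Agilent arrays with a single dye measured RNA from 3 fermentors of 40 L. By the labels, there was 1 array for each fermentor in each of 5 phases, 15 in all. In the order of the process these were logarithmic growth, starved cells sampled when glycerol feeding had ended and no carbon source had been given for 40 min (end of glycerol feeding below), cells fully adapted to methanol as their only carbon source, the labelled peak of the rhHSA expression rate, and the end of fermentation, at an rhHSA level of 220 mg/L. Whole cells of an rhHSA-producing culture were used throughout, and the labels used here name no strain, promoter or clone.

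As background, methylotrophic yeasts oxidise methanol to formaldehyde in peroxisomes, which multiply and fill much of the cell under these conditions. Formaldehyde is then fixed into sugar phosphates by a transketolase, or oxidised to carbon dioxide for energy. Enzymes of this route are strongly repressed on glycerol and induced by methanol, so much study of this yeast has dealt with what methanol raises. This set instead holds what was lower in the methanol-adapted phase than in earlier and later phases. Gene names are not paired with the tags in the files. A look-up in the gene table of assembly ASM170810v1 (5305 rows) found 0 of the 5039, which does not show whether tables of other assemblies hold them. No function was assigned, and neither pathway lists nor markers of methanol use were analysed here. Single tags are therefore named sparingly, by their identifiers.

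A first scan took in 7 arrays, those of fermentor 1 up to the labelled rhHSA peak together with every end of fermentation array, and a second scan took in the remaining 8. From 98.7% to 99.96% of probes per array were well above background, and precision is limited by how few arrays there are. For logarithmic growth arrays 2 and 3 only 2.44% of probes differed beyond the spot noise, so this pair was averaged and counted once, giving n = 2. That share was 7.18% to 9.63% between end of fermentation arrays and 8.32% for end of glycerol feeding arrays 2 and 3, whereas methanol-adapted arrays 2 and 3 had 56.5%. The arrays labelled as the rhHSA peak resembled logarithmic growth most, with a correlation of phase means over the 3915 probes of 0.973, against 0.910 with methanol-adapted cells. Without them the rule would have kept 101 probes, 90 of them among the 91, and values for this phase below are those of the arrays so labelled.

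Because the rule chose the set for its low values in methanol-adapted cells, those values are given as a description and without a test. The margin ran from 0.80 to 2.28 log2 units (1.74-fold to 4.87-fold) with a median of 1.02, and 49 tags had a margin of at least 1, 13 of at least 1.5 and 3 of at least 2. In each of the 91 tags all 3 methanol-adapted arrays lay below the other 12 arrays, which held for 14.9% of all probes in the table and follows in large part from the rule. The median tag of the set stood above its methanol-adapted level by 1.80 log2 units in logarithmic growth (3.48-fold), by 1.17 at the end of glycerol feeding (2.25-fold), by 1.61 in the arrays labelled rhHSA peak (3.04-fold) and by 1.5 at the end of fermentation (2.83-fold). Over all 3915 probes the same medians lay between -0.046 and 0.045.

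**Figure D1:**
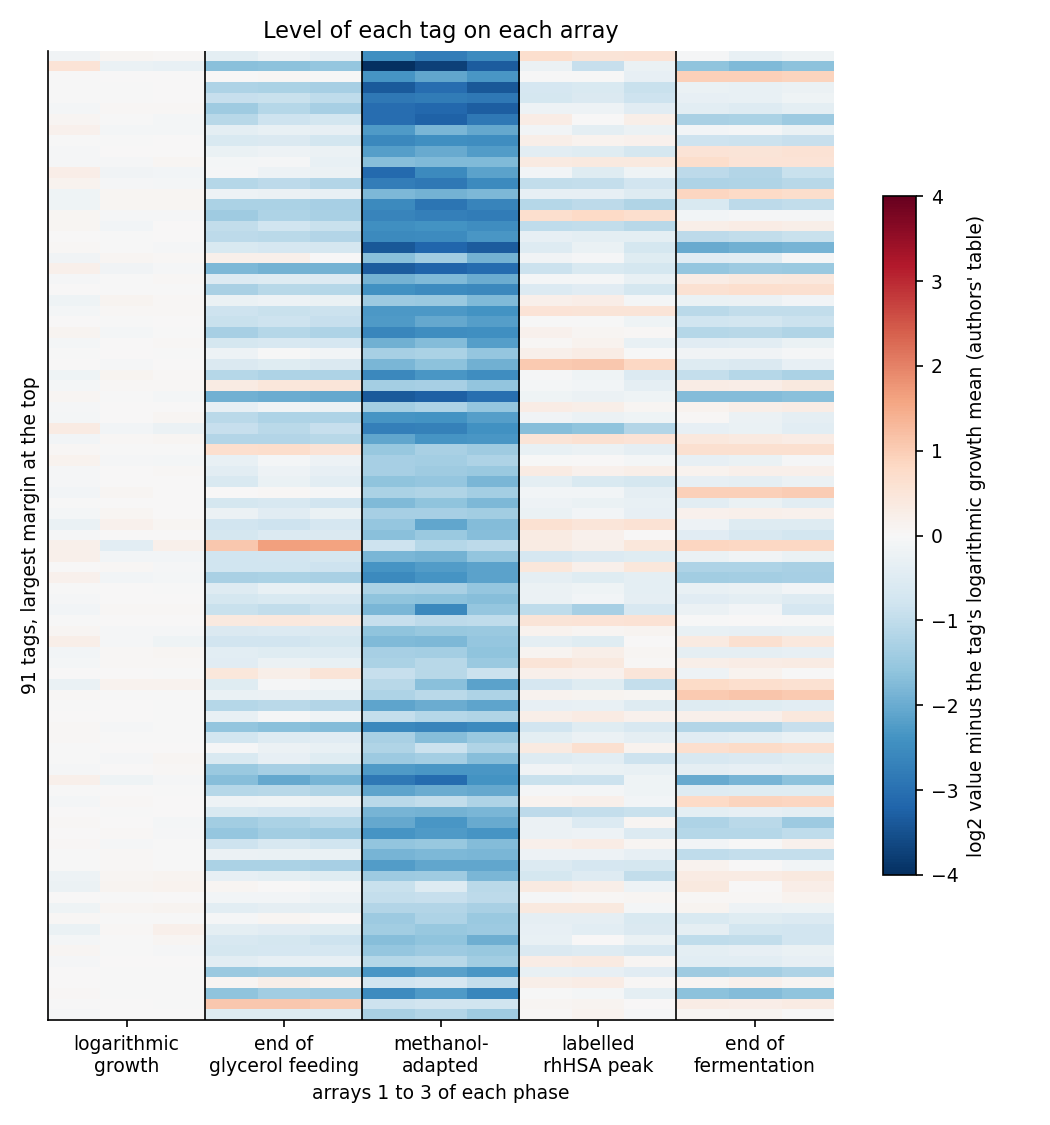
Each row is 1 of the 91 tags, ordered by margin with the largest at the top, and each column is 1 array, with 3 arrays per phase in the order of the process. Colour shows the log2 value in the authors' table minus the tag's own logarithmic growth mean, and values beyond the colour range take its end colour. The methanol-adapted block holds the lowest values in every row, while the other blocks vary between rows.

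Just inside the threshold stood PAS_chr4_0305 with a margin of 0.801, and just outside it PAS_chr2-1_0887 with 0.797. These neighbours at the threshold had near-equal margins, so membership there carries little weight. The condition on the end of fermentation removed 2 tags. PAS_chr3_0076, with a margin of 1.60, was higher at the end of fermentation than in any other phase by 1.28 log2 units. PAS_chr3_1206, with a margin of 0.953, was higher there by 1.07.

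The largest margin belonged to PAS_chr4_0773, whose log2 values in the authors' table were 12.01, 12.25 and 12.22 in logarithmic growth, 11.78, 11.96 and 11.84 at the end of glycerol feeding, 9.70, 9.39 and 9.63 in methanol-adapted cells, 12.85, 12.69 and 12.71 in the arrays labelled rhHSA peak, and 12.11, 11.86 and 11.98 at the end of fermentation. The 3 methanol-adapted arrays stood alone at the bottom, and the highest of them was more than 2 log2 units below the lowest other array. Methanol-adapted cells averaged 9.58 ± 0.17 (SD, n = 3), against 11.86 ± 0.091 (SD, n = 3) at the end of glycerol feeding, the next lowest phase.

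The tag with the second largest margin, PAS_chr4_0705, was also the one with the widest spread among methanol-adapted arrays. Its values were 10.28, 9.48 and 9.44 in logarithmic growth, 8.08, 8.09 and 8.18 at the end of glycerol feeding, 5.10, 5.99 and 6.42 in methanol-adapted cells, 9.51, 8.82 and 9.47 in the arrays labelled rhHSA peak, and 8.11, 7.98 and 8.09 at the end of fermentation. Every methanol-adapted array was below every other array, as for the rest of the set, and their SD was 0.67. Its margin was 2.23 in the authors' table and 1.20 in the fit to the scanner values with the scan taken out. The end of fermentation was its next lowest phase in both.

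The set was not uniform outside the methanol-adapted phase. The labelled rhHSA peak and the end of fermentation follow that phase in the process. The set is therefore defined by the methanol-adapted phase, not by methanol as a carbon source. The highest phase was logarithmic growth for 41 tags, the arrays labelled rhHSA peak for 22, the end of fermentation for 22 and the end of glycerol feeding for 6. The next lowest phase after methanol-adapted cells was the end of glycerol feeding for 53 tags and the end of fermentation for 20. It was the arrays labelled rhHSA peak for 14 and logarithmic growth for 4. Of the drop between logarithmic growth and methanol-adapted cells, a median of 33.3% was already present at the end of glycerol feeding (quartiles 15.9% and 44.9%). The rule limits this share from above, since it kept only tags whose starved mean lay at least 0.8 log2 units above the methanol-adapted mean. In 15 tags the starved cells had already covered at least 50% of the drop, and in 12 tags they stood above logarithmic growth instead.

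**Figure D2:**
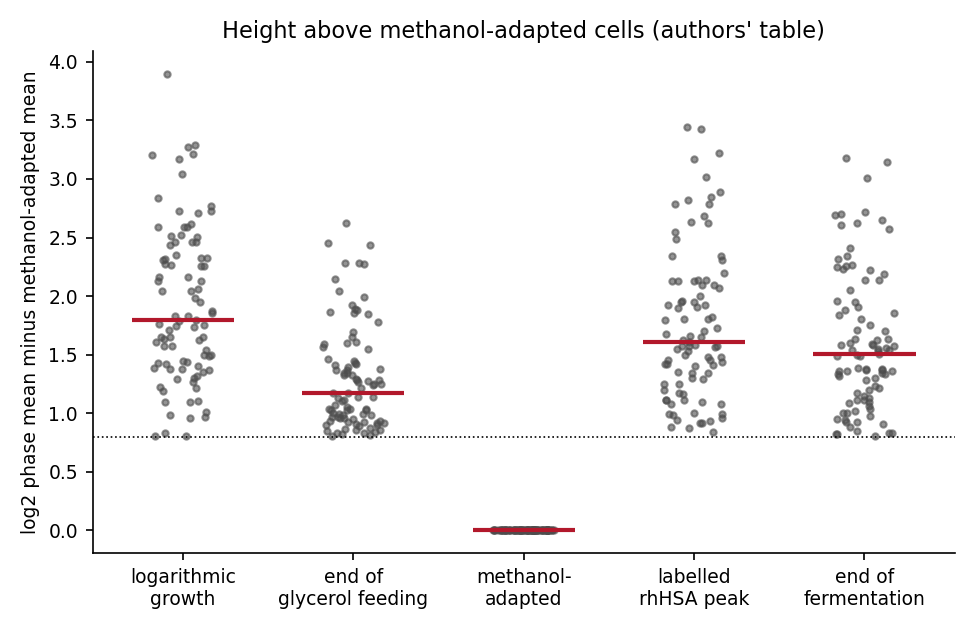
Each point is 1 of the 91 tags, plotted as the log2 mean of a phase minus the methanol-adapted mean in the authors' table, so methanol-adapted cells lie at 0. Red bars are medians (1.80, 1.17, 1.61 and 1.5 in the other phases) and the dotted line is the threshold of 0.8 that chose the tags. Points crowd nearest to the threshold at the end of glycerol feeding.

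The scanner files give the same arrays before the authors' processing between arrays. Each value was scaled to the 75th percentile of its array, and the scan was a term of a limma fit to all phases. In that fit all 91 tags were again lowest in methanol-adapted cells, which held for 24.5% of the 5024 tags fitted, and 81 kept a margin of at least 0.8. The rest had smaller margins, down to 0.29. The median margin was 1.05 in the scanner fit, against 1.02 in the authors' table. These are the arrays that the rule used, so this shows only how far the choice depends on the processing. Of the 1124 probes absent from the authors' list, 1109 could be fitted, and 22 of these met the rule in the scanner values.

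Within scans, the set was low in methanol-adapted cells on both, which the rule favours, because it chose the set from these same arrays. Over the 4 phases that both scans hold, the margin was above 0 for 90 tags on scan 1, where each phase had 1 array (median 1.11), and for 91 tags on scan 2 (median 1.20). It reached 0.8 for 85 and 89 tags on scans 1 and 2. The exception on scan 1 was PAS_chr1-1_0139, at -7.79 in methanol-adapted cells, against -8.00 in the array labelled rhHSA peak, as log2 scanner signal after that scaling. It was well above background on only 2 of 3 methanol-adapted arrays and on all arrays of the other phases. The other 90 tags were well above background on all 15 arrays, and no spot of the set was saturated. The difference between scans had a median of 0.037 log2 units and an SD of 0.71 over the set, against -0.00040 and 0.73 over all fitted tags.

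**Figure D3:**
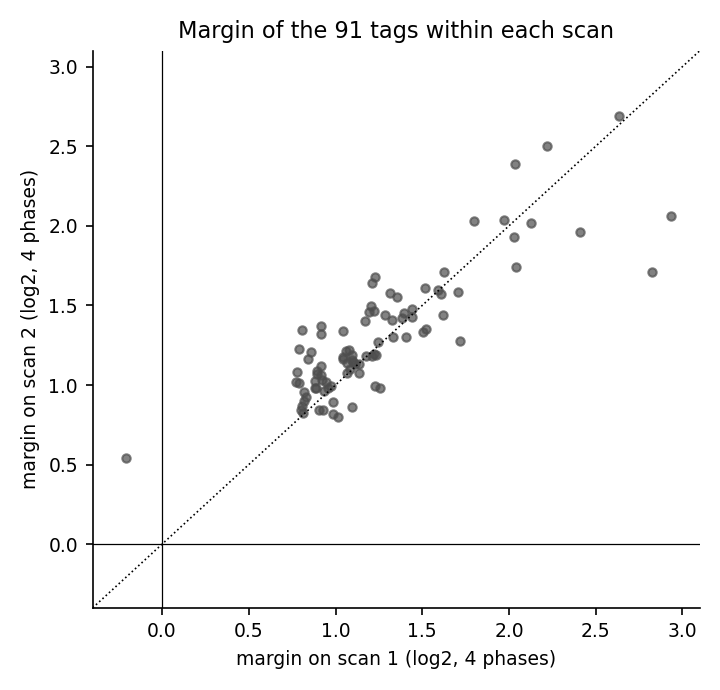
Each point is 1 of the 91 tags, with its margin over the first 4 phases on scan 1 (horizontal, 1 array per phase) and on scan 2 (vertical, 2 arrays per phase), in log2 units of the scanner signal. The dotted line marks equal margins. All points but PAS_chr1-1_0139, at -0.21 on scan 1 and 0.54 on scan 2, lie above 0 on both axes.

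The rule treats logarithmic growth, the end of glycerol feeding and the labelled rhHSA peak alike, so it did not set their order. It did use their values, since each mean had to lie at least 0.8 log2 units above the methanol-adapted mean. The 3 differences among these phases were tested. They are not independent of that choice, and how far it moved them was not assessed. These comparisons share arrays with each other, and each used the limma fit with scan as a block and Benjamini-Hochberg adjustment over all 5024 tags, with an adjusted p below 0.05 counted as a call. All 91 tags passed the filter on dim probes. Some arrays kept as separate columns of the fit were near-identical. For a pair at the end of glycerol feeding only 8.32% of probes differed beyond the spot noise. SEs and adjusted p-values below measure the spread between such arrays, which may be smaller than that between independent fermentors. Whether this made the p-values too small was not tested.

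When glycerol feeding ended, most of the set was already lower in the starved cells than in logarithmic growth. By this test 64 of the 91 tags (70.3%) fell and 5 rose (5.49%), against 33.6% lower and 33.4% higher among all tags tested. In either direction 75.8% of the set was called, against 67% of all tags. The median difference was -0.62 log2 units over the set (1.53-fold lower), against -0.013 over all tags. On scan 1 the set's median was -0.71 and on scan 2 it was -0.56, and 80 tags were lower on both. Without the scan block 44 tags of the set were called (41 lower, 3 higher), or 48.4% against 36.9% of all tags.

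PAS_chr1-1_0002 fell furthest at this step. Its log2 signal relative to the 75th percentile was 1.22, 1.51 and 1.54 at the end of glycerol feeding, against 3.33, 3.32 and 3.41 in logarithmic growth. The 2 phases did not overlap on either scan. The fitted difference was -1.98 ± 0.12 (SE), or 3.95-fold lower, with a limma adjusted p of 1.33e-07. This fall was called in each alternative fit. Near-identical arrays at the end of glycerol feeding entered the fit separately, so the SE and adjusted p carry the limit given above.

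Against the run of the set, PAS_chr2-2_0393 rose most. Its signal was -1.29, -1.35 and -1.36 at the end of glycerol feeding, against -2.45, -2.71 and -2.79 in logarithmic growth. All starved arrays lay above all arrays of logarithmic growth. The fitted rise was 1.32 ± 0.16 (SE), or 2.49-fold, with a limma adjusted p of 2.42e-05, called in each alternative fit. In methanol-adapted cells this tag then stood at -3.65, -4.45 and -4.05, below both phases.

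In the arrays labelled rhHSA peak more of the set was lower than higher relative to logarithmic growth. Of the 91 tags 39 fell (42.9%) and 8 rose (8.79%), against 27.0% lower and 24.1% higher among all tags tested. The share called in either direction, 51.6%, was near the 51.1% of all tags. The median difference was -0.24 over the set, against -0.0080 over all tags, and it was -0.20 on scan 1 and -0.27 on scan 2, with 56 tags lower and 26 higher on both scans. Calls of at least 1 log2 unit numbered 5, all lower, or 5.49% of the set, near the 4.56% of all tags.

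The number of calls here depended on the model. It was 47 as given and 49 with fermentor as a further replicate block, or 53.8% of the set against 52.2% of all tags. Without the scan block it was 17, or 18.7% against 15.4%, and where a replicate block for fermentor took its place it was 31, or 34.1% against 30.8%. With only the arrays of these phases it was 22, or 24.2% of the set and of all tags alike. Normexp background correction gave 31, or 34.1% against 37.1%. With median centring it was 27, and the set's share of 29.7% was then below the 46.1% of all tags. Quantile normalization gave 37.4% against 49.8%, and the authors' values 56.0% against 61.7%. Scaling also moved the split. The 8 higher and 39 lower became 8 and 19 with median centring, 11 and 23 with quantile normalization, and 14 and 37 in the authors' table. The median of all tags was -0.0080 as given and 0.11 with median centring, and relative to it the set's median was -0.23 as given and -0.22 with median centring.

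Among these tags PAS_chr4_0091 had the largest fall. Its signal was -4.50, -6.41 and -5.42 in the arrays labelled rhHSA peak, against -2.52, -4.63 and -4.79 in logarithmic growth. In both groups the scan 1 array, given first, was the brightest, and within each scan the arrays labelled rhHSA peak were lower. The fitted difference was -1.56 ± 0.28 (SE), or 2.94-fold lower, with a limma adjusted p of 0.000975. It was not called without the scan block (adjusted p = 0.142) or with normexp background correction (adjusted p = 0.335), and is one of the less certain values.

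The largest rise in this comparison was that of PAS_chr1-1_0212. Its signal was -2.65, -3.25 and -3.31 in the arrays labelled rhHSA peak, against -3.45, -4.15 and -4.14 in logarithmic growth. The groups did not overlap. The difference was 0.81 ± 0.090 (SE), or 1.75-fold, with a limma adjusted p of 4.01e-05, and without the scan block it was not called (adjusted p = 0.0696). The tag with the largest margin, PAS_chr4_0773, was also higher in the arrays labelled rhHSA peak than in logarithmic growth, by 0.51 ± 0.16 (SE; limma adjusted p = 0.0181). That call was lost without logarithmic growth array 1 (adjusted p = 0.122), without labelled rhHSA peak array 1 (adjusted p = 0.0768) and without the scan block (adjusted p = 0.0687).

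**Figure D4:**
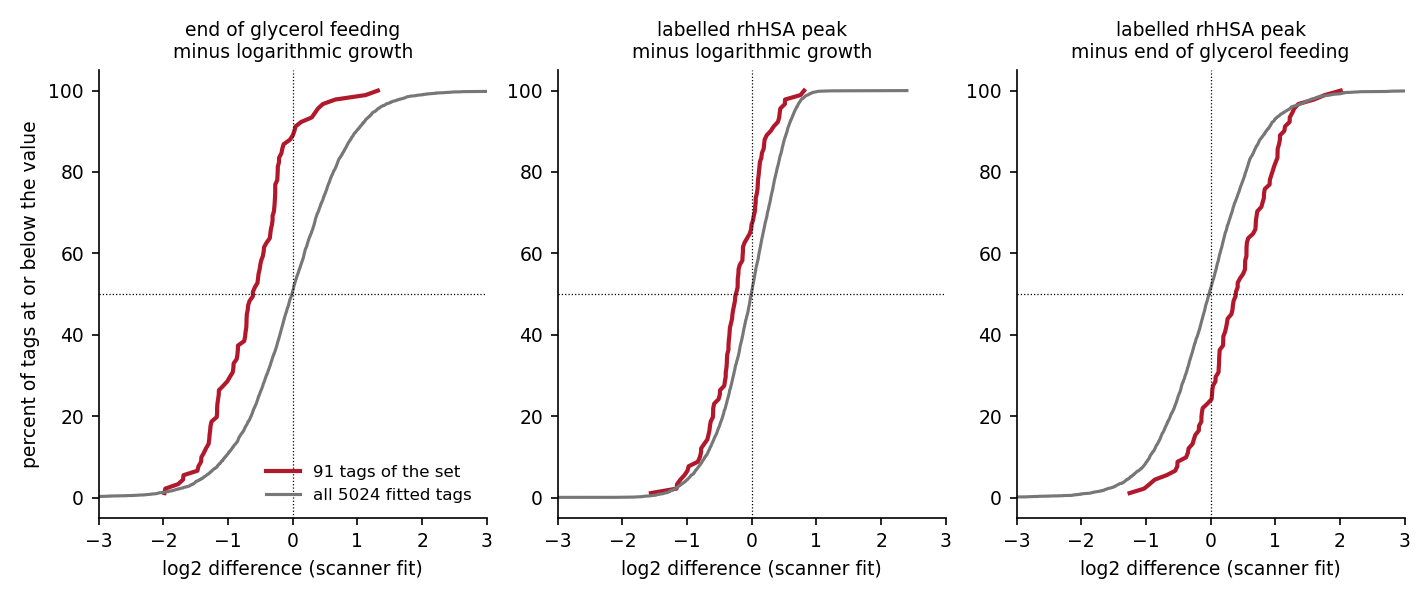
Each panel gives the cumulative percent of tags (vertical) at or below a log2 difference (horizontal, limma fit to scanner values) for the 91 tags of the set in red and all 5024 fitted tags in grey. The red curve lies left of the grey one for the end of glycerol feeding minus logarithmic growth (medians -0.62 and -0.013), slightly left for labelled rhHSA peak minus logarithmic growth (-0.24 and -0.0080), and right for labelled rhHSA peak minus the end of glycerol feeding (0.39 and -0.026). Tags beyond 3 log2 units, none of them in the set, are off the axis.

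Set against the end of glycerol feeding, the arrays labelled rhHSA peak were higher for most of the set. There 54 tags rose (59.3%) and 13 fell (14.3%), against 31.9% higher and 35.6% lower among all tags tested. Called in either direction were 73.6% of the set, against 67.5% of all tags. The median difference was 0.39 over the set (1.31-fold), against -0.026 over all tags, with 0.45 on scan 1 and 0.37 on scan 2. On both scans 65 tags were higher and 18 lower. Without the scan block 41 tags of the set were called, or 45.1% against 36.3% of all tags. With median centring 58 were higher and 6 lower, or 70.3% called against 63.0% of all tags.

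PAS_chr4_1001 rose most in this comparison. Its signal was 0.55, -0.38 and -0.58 in the arrays labelled rhHSA peak, against -1.55, -2.42 and -2.47 at the end of glycerol feeding. All 3 arrays of the labelled peak stood above all starved arrays. The fitted rise was 2.01 ± 0.10 (SE), or 4.03-fold, with a limma adjusted p of 3.61e-08, and it was called in each alternative fit. The largest fall was that of PAS_chr2-2_0393, at -2.41, -2.90 and -2.46 in the arrays labelled rhHSA peak, against the starved values given above. It measured -1.25 ± 0.14 (SE), or 2.38-fold lower (limma adjusted p = 1.35e-05).

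**Figure D5:**
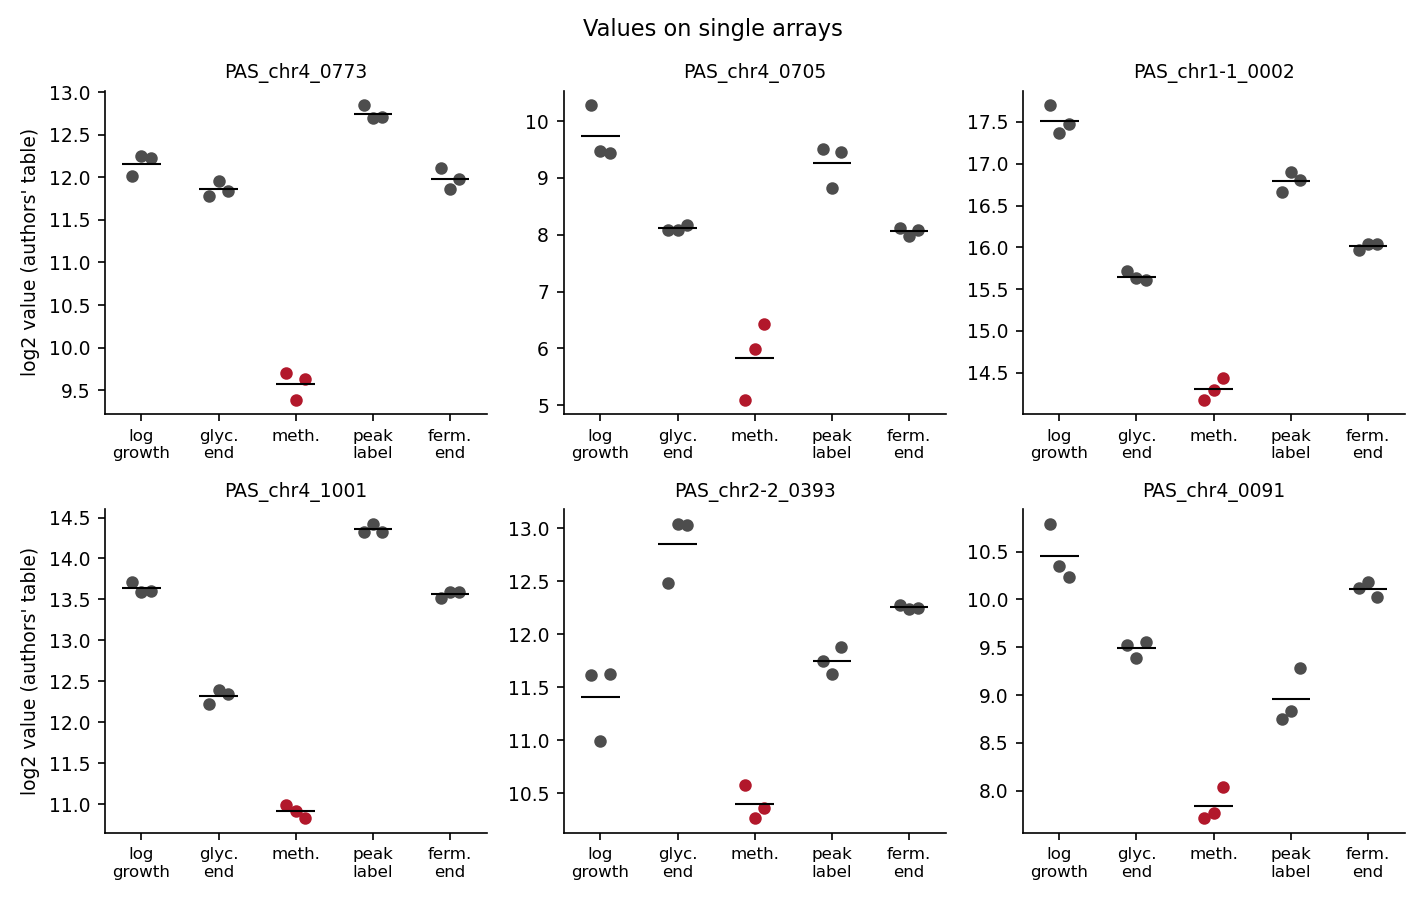
Log2 values in the authors' table for 6 tags on each of the 15 arrays, with phases in the order of the process. Points are arrays 1 to 3 and bars are their means, with methanol-adapted arrays in red. Vertical axes differ between panels and do not start at 0. In each panel the red points lie lowest, while the order of the other phases differs from tag to tag.

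The end of fermentation was described without a test, because the rule bounds it on both sides and all its arrays were on scan 1. Its mean had to lie at least 0.8 log2 units above the methanol-adapted mean and less than 1 above the highest other mean. The rule therefore limits the counts of higher and of lower tags given here. In the scanner fit the set's median difference at the end of fermentation was -0.47 against logarithmic growth, where all tags had -0.22, and 0.056 against the end of glycerol feeding, where all tags had -0.21. Against the arrays labelled rhHSA peak it was -0.29, where all tags had -0.21. At least 1 log2 unit below logarithmic growth were 27 of the 91 tags, with 19.6% of all tags that far below, and 0 were that far above, with 9.1% of all tags. Against the end of glycerol feeding 8 tags of the set were higher by at least 1 log2 unit and 4 lower, with 8.38% and 19.5% of all tags. Against the arrays labelled rhHSA peak 6 were higher and 19 lower by as much, with 12.6% and 20.9% of all tags. The 8 tags higher than the end of glycerol feeding and the 19 lower than the labelled rhHSA peak were near the shares of all tags. Differences from logarithmic growth ran from -2.57 to 0.86 within the set, and this range was not compared with that of all tags. In the authors' table these medians were shifted, to -0.31 against logarithmic growth (all probes 0.029), 0.26 against the end of glycerol feeding (all probes 0.034) and -0.11 against the arrays labelled rhHSA peak (all probes 0.0045).

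The tags were spread over the chromosomes named in their identifiers. Chromosome 1 held 24 of the set (2.09% of its probes in the table), chromosome 2 held 22 (2.17%), chromosome 3 held 22 (2.47%) and chromosome 4 held 21 (2.79%), against 2.32% of the whole table. The remaining 2 were on the fragment named FragB. Whether tag numbers follow the order along the chromosome is not stated in these sources. Members had 134 neighbours by number in the table, of which 8 (5.97%) were members, each of 4 consecutive pairs being counted from both sides.

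One run held 3 consecutive numbers, PAS_chr3_0175, PAS_chr3_0176 and PAS_chr3_0177, singled out after their values were seen. In the authors' table PAS_chr3_0175 was at 12.09, 12.29 and 12.15 in methanol-adapted cells, against 13.46, 13.51 and 13.43 at the end of glycerol feeding, its next lowest phase. PAS_chr3_0176 was at 12.80, 12.87 and 12.85 in methanol-adapted cells, against 13.64, 13.71 and 13.72 at the end of fermentation. PAS_chr3_0177 was at 12.29, 12.46 and 12.08, against 13.11, 13.32 and 13.26 at the end of glycerol feeding. Each tag's methanol-adapted arrays lay below its arrays of the next lowest phase, as the rule favours. At the end of glycerol feeding relative to logarithmic growth the difference was -0.91 for PAS_chr3_0175 (limma adjusted p = 8.52e-07), -0.27 for PAS_chr3_0176 (limma adjusted p = 0.00268) and -0.32 for PAS_chr3_0177 (limma adjusted p = 0.0568), and differences between these tags were not tested.

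Neighbours that met the rule are members, so the remaining neighbours hold fewer low values by construction. How many of these were lower in methanol-adapted cells was not counted. The 125 non-member tags in the table with a number next to a member had a median methanol-adapted value 0.047 log2 units above the mean of the other phases, against 0.014 for all probes in the table. Of these 7 (5.60%) were highest in methanol-adapted cells by at least 0.8 log2 units, against 1.89% of the table.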

How the data were processed

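The linear intensity of each spot on 15 single-colour Agilent arrays was taken from the deposited scanner output. Per the file headers they were extracted with Feature Extraction 10.7.3.1 and background-subtracted within each array, whereas the submitters' processing notes name version 9.1. A second deposited source is the authors' log2 table of 3915 probes, whose normalization and centring are not given in the sources used here.

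The set was taken from the authors' log2 table. For tests, log2 processed signal minus each array's 75th percentile was averaged over the 3 spots of a probe, without outlier-flagged spots. Tags for which every array of some phase was well above background in 2 of 3 spots were fitted with limma 3.58.1 in R 4.3.3 as 14 columns, logarithmic growth arrays 2 and 3 being averaged, with phase and scan as terms. End of glycerol feeding arrays 2 and 3 (8.32% of probes beyond the spot noise) and the end of fermentation arrays (7.18% to 9.63%) stayed separate columns. SDs and adjusted p-values measure the spread between these arrays, which may be smaller than that between independent fermentors. Whether this made the p-values too small was not tested. Simulated data with known changes, independent noise on each array and a scan difference were used to test the fit. They held no near-identical arrays and no correlation within a fermentor, so they cannot show how these affect the p-values.

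The set and its tests were chosen with earlier results of these data known. Named tags are the 2 with the largest margin and, in each tested comparison, the called tag with the largest rise and the one with the largest fall, with those at the threshold. PAS_chr1-1_0139, PAS_chr3_0076, PAS_chr3_1206 and the run PAS_chr3_0175 to PAS_chr3_0177 fall outside this rule and were named after their values were seen. The gene lists were not used, since no tag was matched to a gene name.

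Fermentor numbers in the labels recur in each phase and were taken to pair arrays. Among the first 4 phases, deviations from phase means correlated between equal numbers at 0.940 to 0.954 (fermentor 1, which here is also scan 1), 0.786 to 0.914 (fermentor 2) and 0.426 to 0.899 (fermentor 3), but with the end of fermentation only at -0.051 to 0.058, 0.185 to 0.264 and -0.321 to -0.200 in the same order. Alternatives covered blocks, scaling, background correction, filters, thresholds and left-out arrays. The normexp correction used the median spot signal.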

Additional observations from a re-analysis of the deposited data

How the results depend on the processing

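The set held 91 tags as described, and 85 to 97 when 1 array was left out. It held 49 at a margin of 1, 254 on scan 2 alone, which lacks the end of fermentation, and 169 when the rule left out the end of fermentation, a choice made after seeing the data like the rule without the arrays labelled rhHSA peak (101). Fewer phases leave fewer conditions to meet, so more tags qualify by construction. From the scanner values the rule gave 97 tags with the scan taken out (81 shared with the 91), 99 as plain means (74 shared) and 90 after quantile normalization (75 shared).

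For the end of glycerol feeding against logarithmic growth 69 tags were called, 62 to 73 with 1 array left out, and the counts beyond 1.5 times of that were 44 without the scan block, 28 at 1 log2 unit or more and 38 among the 49 tags of margin 1. For the labelled rhHSA peak against logarithmic growth 47 were called, 36 to 52 with 1 array left out. The others were 17 without the scan block, 31 when a replicate block for fermentor replaced it, 22 with only these phases, 27 with median centring, 31 with normexp, 5 at 1 log2 unit or more and 27 of the 49. For the labelled rhHSA peak against the end of glycerol feeding 67 were called, 61 to 68 with 1 array left out, with 41 without the scan block, 19 at 1 log2 unit or more and 38 of the 49. Pairing by fermentor together with the scan block gave 72, 49 and 67 in the order of these comparisons. Thresholds and smaller sets lower a count by construction, and the cause of the other changes was not tested. For the 49 tags the shares called among all tags are those of the main fit, 67%, 51.1% and 67.5% in the same order. Other shares over all tags are given above for some of these settings only. A count without such a share shows how the processing moves it and is not a result about the set. Over the 7 named tags and 3 comparisons, 554 of the alternative values kept direction and call, 27 lost the call, 7 gained one and 0 reversed a called direction. Nearly all probes were above background.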
